A study of Homo sapiens with 6 samples.

Results

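Of 10 genes of autophagy and its transcriptional control, 8 were tested, and WIPI1 was the only one whose rise after TSN passed the test. Of all genes tested, 14.9% were called in either direction, and 7.71% of all genes tested were called higher in TSN. MAP1LC3B, GABARAPL2, ULK1 and ATG5 had all 3 TSN values above all 3 DMSO values without a call. That order of values, with or without a call, was seen in 16.2% of the genes tested. SQSTM1 had it too but was not tested, and 11.4% of all 30741 genes had it. The call of WIPI1 was lost in 5 of the 6 fits that left out 1 library. The 10 genes were chosen by symbol: the transcription factors TFEB and TFE3, the initiation kinase ULK1, the lipid kinase subunit BECN1, the phosphoinositide-binding protein WIPI1, the conjugation factor ATG5, the ATG8-family genes MAP1LC3B, GABARAPL1 and GABARAPL2, and the cargo receptor SQSTM1. The expression table holds 30741 genes. It has a row for 9 of the 10, and TFE3 was not analysed here. Of those 9, 8 reached the filter on low values (at least 1 FPKM in at least 3 libraries) and were tested, and SQSTM1 did not reach it. FPKM are fragments per kilobase of gene length, scaled to the size of the library.

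Autophagy is the route by which a cell encloses cytosol and organelles in a membrane vesicle and delivers them to the lysosome. The ULK1 kinase complex starts it, the lipid kinase complex around BECN1 makes phosphatidylinositol 3-phosphate on the growing membrane, WIPI proteins bind that lipid, and ATG5, joined to ATG12, helps attach ATG8 proteins such as LC3B and the GABARAPs to the membrane. Receptors such as SQSTM1 (p62) bring cargo to the ATG8 proteins. TFEB and TFE3 are basic helix-loop-helix factors of the MiT/TFE family, held in the cytosol by mTORC1 and able in the nucleus to switch on lysosome and autophagy genes. They are controlled largely by phosphorylation and location, and autophagic flux is followed on proteins, so RNA levels measure neither.

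The cells were MOLM-13, an established line from human acute myeloid leukaemia that carries a fused KMT2A and a FLT3 gene with a tandem duplication, given as wild type in the labels. Both groups were cultured in RPMI-1640 with serum and antibiotics, and each was kept for 48 h either in 20 nM TSN (read here, from the title of the series, as toosendanin, a plant triterpenoid) or in the solvent DMSO, with 3 libraries per group that the labels call biological replicates. The title asks about DDX5, MYC and protein synthesis, and the autophagy genes are a question put to the same libraries. Groups were read from titles, since all 6 samples have DMSO in their treatment field, and the 3 columns without the word TSN were taken as DMSO because no other group exists.

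Depth, estimated from the steps between low values, ran from 37172000 to 50398000 fragments, so that 1 kb of exon with 1 fragment had 0.0198 to 0.0269 FPKM. TSN 3 stood apart, with a median log2(FPKM + 1) over tested genes of 2.97 where the other 5 had 3.30 to 3.46. Within its group it correlated over genes at 0.965 with TSN 1 and 0.913 with TSN 2, which had 0.982 with each other. The lowest correlation of any pair, 0.863, was across groups, of TSN 3 with DMSO 3. The myeloid marker CD33 was present in all 6 libraries at 8.87 to 10.1 FPKM and MPO at 1989 to 3668 FPKM. The 7 myeloid and KMT2A-fusion genes summed to 3499 to 3773 FPKM in DMSO and 2116 to 2234 in TSN, most of the sum and of its drop being MPO. ITGAM went the other way, from 2.62 to 3.78 FPKM in DMSO to 8.70 to 14.3 in TSN (limma adjusted p = 0.00789). SPI1 and HOXA9 were also higher in TSN without overlap, as were 16.2% of genes tested, but gave no call (limma adjusted p = 0.138 and 0.0638). HOXA9 met the filter on low values only through its TSN values. FLT3 lay at 2.93 to 6.78 FPKM over all 6 libraries, HOXA9 at 0.613 to 1.13 and MEIS1 at 0.140 to 0.469. The 3 of 6 erythroid markers with a row summed to 0.180 to 0.887 FPKM, with HBB at 0 in 4 libraries. The 5 of 6 lymphoid markers with a row summed to 27.3 to 34.0 FPKM in DMSO and 84.4 to 215.5 in TSN, most of it NKG7, while of the T cell genes CD3D went from 0.892 to 1.06 FPKM in DMSO to 1.82 to 2.95 in TSN (limma adjusted p = 0.0251) and CD3E lay at 0.0976 to 0.194 FPKM over all 6. CD3D met the filter on low values through its TSN values. The 5 of 6 epithelial or fibroblast markers with a row summed to 11.1 to 12.7 FPKM in DMSO and 18.9 to 37.1 in TSN, most of the increase in KRT18. The part of these shifts in the results was not tested.

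The starts of WIPI1, ULK1 and MAP1LC3B are shown because these are the 3 genes called without TSN 3, a library that stood apart. Each run is the 250 bases before the RefSeq start on GRCh38.p14, written 5′ to 3′ on the strand of the gene. In WIPI1 (minus strand, chr17:68457497-68457746) and ULK1 (plus strand, chr12:131894372-131894621) capitals mark GGGCGG or its reverse complement, the GC box that Sp1-type factors bind. In MAP1LC3B (plus strand, chr16:87392086-87392335) capitals mark TCACNTGA on either strand.
WIPI1: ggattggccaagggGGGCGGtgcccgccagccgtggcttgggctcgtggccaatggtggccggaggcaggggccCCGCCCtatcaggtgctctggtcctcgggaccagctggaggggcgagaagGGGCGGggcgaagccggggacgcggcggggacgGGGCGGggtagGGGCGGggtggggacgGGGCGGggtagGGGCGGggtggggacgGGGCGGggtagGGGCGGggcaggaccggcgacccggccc
ULK1: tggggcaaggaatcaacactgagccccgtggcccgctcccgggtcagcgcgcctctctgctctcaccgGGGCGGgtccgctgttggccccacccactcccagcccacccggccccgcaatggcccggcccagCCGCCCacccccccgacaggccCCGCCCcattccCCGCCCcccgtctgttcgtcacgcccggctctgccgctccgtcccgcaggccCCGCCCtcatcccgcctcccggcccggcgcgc
MAP1LC3B: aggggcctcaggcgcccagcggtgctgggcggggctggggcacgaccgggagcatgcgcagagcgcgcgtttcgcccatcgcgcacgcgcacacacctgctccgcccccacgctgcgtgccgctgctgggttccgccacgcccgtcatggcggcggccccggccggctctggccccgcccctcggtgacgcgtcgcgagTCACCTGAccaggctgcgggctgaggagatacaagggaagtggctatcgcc
WIPI1 carried 9 GC boxes, most of them in a short repeated unit, and 0.285% of the 35116 RefSeq windows of this length held as many. ULK1 carried 5, and 4.15% of windows held as many. MAP1LC3B carried 3, left in lower case here, and 13.9% of windows held as many. At least 1 GC box stood in 42.6% of all windows and in 13 of the 15 windows of the 10 genes, with 4 in a window of SQSTM1 and in that of TFE3. The E-box CACGTG, the core that MiT/TFE factors and MYC can bind, was in 0 of the 15 windows of the 10 genes and in 6.34% of all windows. The longer palindrome TCACGTGA, which contains CACGTG, was in 0 of the 15 and in 0.854% of all. The looser TCACNTGA, of which TCACGTGA is one form, was found in 1 of the 15, at MAP1LC3B as TCACCTGA 51 bases before the start, and in 3.2% of all windows. A match is only a match of letters, and the lack of one says nothing of sites outside these windows.

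WIPI1 (ENSG00000070540, chromosome 17, 68420948 to 68457513) was the gene that moved furthest among the 8 tested. It stood at 4.65, 4.66 and 5.71 FPKM in DMSO 1, 2 and 3 and at 10.4, 12.7 and 7.27 FPKM in TSN 1, 2 and 3. All TSN values lay above all DMSO values, and the smallest rise was that of TSN 3. The mean went from 5.008 ± 0.611 to 10.1 ± 2.71 FPKM (SD, n = 3), 2.02 times the DMSO mean. On the log2(FPKM + 1) scale the change was 0.86 ± 0.22 SE, with a limma adjusted p of 0.0456, close to the threshold of 0.05. Counting error was small beside this, with about 633 to 1907 fragments per library over the annotated exons.

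In bulk RNA a change in RNA per cell and a change in the mix of cells cannot be told apart, and FPKM show no change in total RNA. The call of WIPI1 was lost without DMSO 1 (limma adjusted p = 0.168), DMSO 2 (0.174), DMSO 3 (0.11), TSN 1 (0.164) or TSN 2 (0.0622), with log2 fold changes of 0.70 to 0.94, and was firmer without TSN 3 (1.06, limma adjusted p = 0.00734). Exons of WIPI1 share 28.1% of their bases with genes on the opposite strand, among them ARSG. Whether the counting used strand was not given in the sources used here, and fragments of the pair cannot be told apart there.

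**Figure D1:**
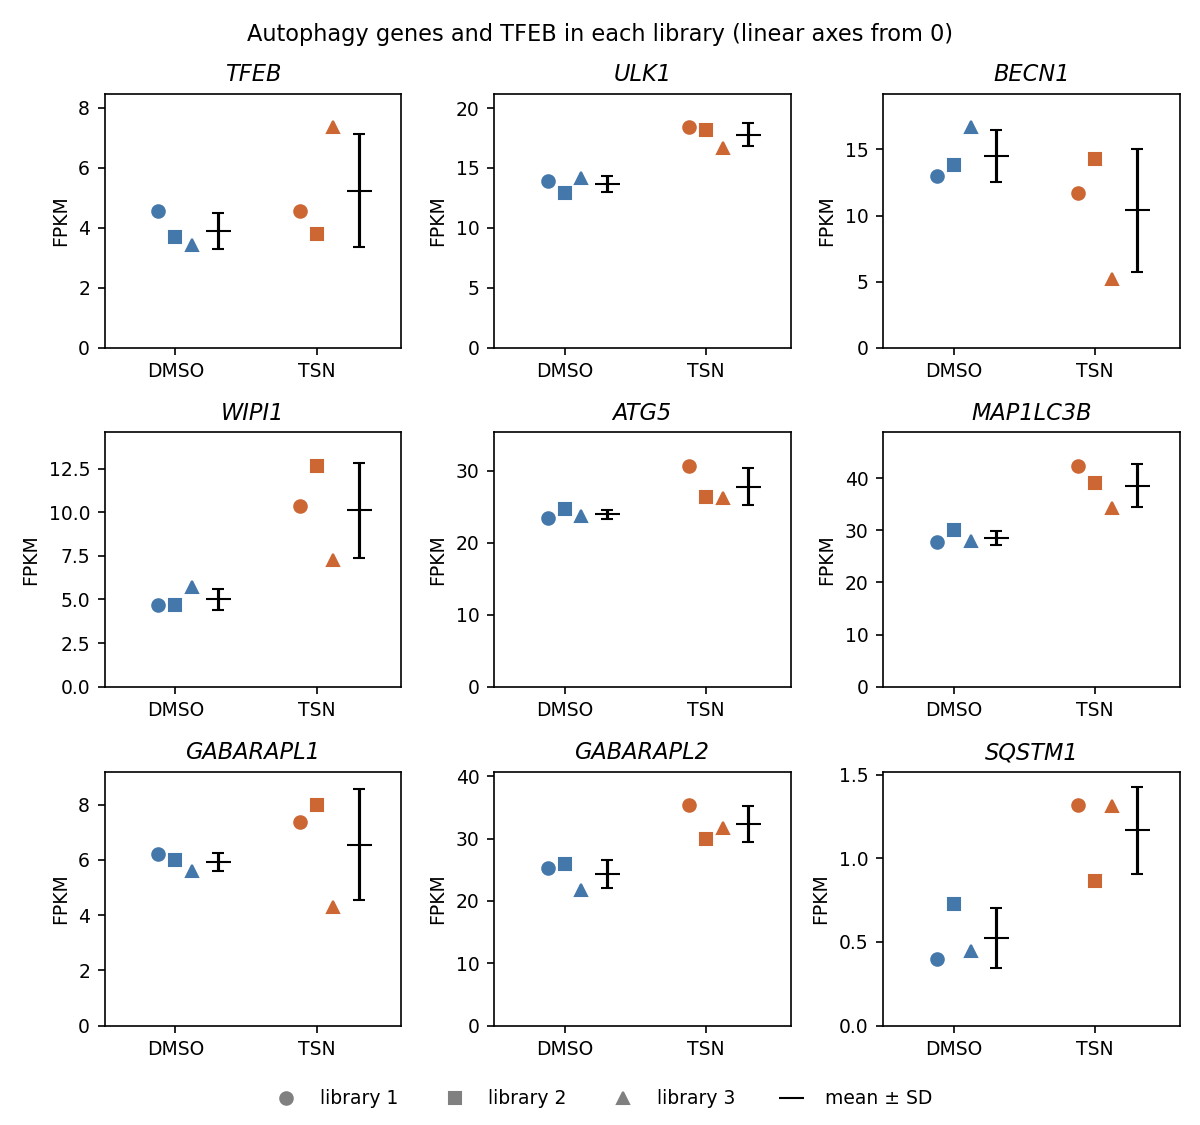
FPKM of the 9 genes with a row (linear axes from 0) in each of 3 DMSO and 3 TSN libraries, with symbols for library number and bars for the mean ± SD. WIPI1, ULK1, ATG5, MAP1LC3B, GABARAPL2 and SQSTM1 do not overlap between groups, while TSN 3 is the extreme TSN value of TFEB (7.37), BECN1 (5.21) and GABARAPL1 (4.28).

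Of the 8 tested genes 1 was called (12.5%), against 14.9% of the 11440 genes tested, so the share of calls was near that of all genes. The 1 call was of a higher level, the direction of 7.71% of tested genes. In 5 of the 8, all TSN values lay above all DMSO values, against 16.2% of the tested genes, and in 0 of the 8 all lay below, against 22.9%. The median log2 fold change of the 8 was 0.34, beside -0.10 over all genes tested. The genes were chosen with earlier results of these data known, so these shares are a description and no test of the group.

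TFEB, the master regulator of lysosome genes (ENSG00000112561, chromosome 6, 41683978 to 41736259), did not pass the test. Its values were 4.56, 3.68 and 3.43 FPKM in DMSO and 4.55, 3.79 and 7.37 FPKM in TSN. TSN 1 and TSN 2 lay within the DMSO range and only TSN 3 lay above it. The log2 fold change was 0.32 ± 0.24 SE (95% interval -0.26 to 0.89, limma adjusted p = 0.413), and it was 0.08 without TSN 3. By a rule of likeness (the smallest root mean square difference between gene-centred log2(FPKM + 1) values over the 6 libraries, among 7331 genes), the pattern nearest to TFEB was that of DOK2 (0.0557), then ERCC1 (0.0631) and NAT8L (0.0668). Each of these 3 also had its highest value in TSN 3. MITF, a paralogue of TFEB, stayed at 0.0883 to 0.442 FPKM in all libraries, under the filter, and TFEC was not analysed here.

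ULK1, the kinase that starts autophagy (ENSG00000177169, chromosome 12, 131894651 to 131923167), read 13.9, 12.9 and 14.2 FPKM in DMSO and 18.5, 18.2 and 16.7 FPKM in TSN. The groups did not overlap and the spread within each was small. The mean went from 13.66 ± 0.653 to 17.78 ± 0.938 FPKM (SD, n = 3). The change of 0.36 ± 0.13 SE on the log2 scale (95% interval 0.06 to 0.66) missed the threshold (limma adjusted p = 0.108). It passed without TSN 3 (0.40, limma adjusted p = 0.0352), after median log ratio scaling (0.46, 0.0376) and after quantile normalization (0.47, 0.0243). Its exons overlap those of no other annotated gene.

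ULK1 acts in a complex with ATG13, RB1CC1 (FIP200) and ATG101. Of the 4 tested genes of this complex 0 rose and 0 fell by limma, beside 14.9% called over all genes. ATG13, the adaptor that links the kinase to the complex, had values of 39.2, 42.6 and 41.2 FPKM in DMSO and of 35.9, 34.3 and 36.3 FPKM in TSN. These lay below DMSO without overlap, opposite to ULK1, yet the change of -0.20 ± 0.11 SE did not pass (limma adjusted p = 0.283). ATG101, which stabilises ATG13, ranged from 22.9 to 66.3 FPKM in TSN, with TSN 3 highest, and from 34.4 to 60.3 in DMSO with DMSO 3 lowest. Without DMSO 3 and TSN 3 the values left were 60.3 and 52.5 FPKM in DMSO against 33.1 and 22.9 in TSN, and the limma adjusted p went from 0.59 to 0.0154.

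BECN1, a core subunit of the autophagy lipid kinase complex (ENSG00000126581, chromosome 17, 42810134 to 42833350), was the 1 tested gene of the 8 with a negative estimate. It read 13.0, 13.8 and 16.7 FPKM in DMSO and 11.7, 14.3 and 5.21 FPKM in TSN. TSN 2 lay within the DMSO range and TSN 3 far below it, and the log2 fold change of -0.54 ± 0.34 SE did not pass (95% interval -1.36 to 0.29, limma adjusted p = 0.339). It was -0.15 without TSN 3 and -0.05 without both DMSO 3 and TSN 3. Exons of BECN1 share 17.1% of their bases with CNTD1 and PSME3 on the opposite strand. The complex of BECN1 includes the kinase PIK3C3 and the membrane-targeting subunit ATG14. Of 7 tested genes of the complex 0 rose and 0 fell, beside 14.9% called over all genes, with a median of -0.19. NRBF2, a subunit that holds the complex together, read 49.2, 46.7 and 56.9 FPKM in DMSO and 45.2, 46.8 and 23.6 FPKM in TSN, again with TSN 3 lowest (limma adjusted p = 0.318). AMBRA1, a regulator of BECN1, read 12.6, 14.0 and 7.96 FPKM in TSN against 12.1 to 14.2 in DMSO (limma adjusted p = 0.61).

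WIPI1 was also the only call among the 8 tested genes for phosphoinositide binding, the scramblase ATG9A and lipid transfer. That was 12.5% called, beside 14.9% of all genes. WIPI2, the paralogue that recruits the ATG16L1 complex, lay at 49.6 to 54.7 FPKM in DMSO and 50.7 to 52.2 in TSN, with a log2 fold change of -0.03 ± 0.12 SE (95% interval -0.31 to 0.24). It was named after its values were seen, as the nearest relative of WIPI1.

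**Figure D2:**
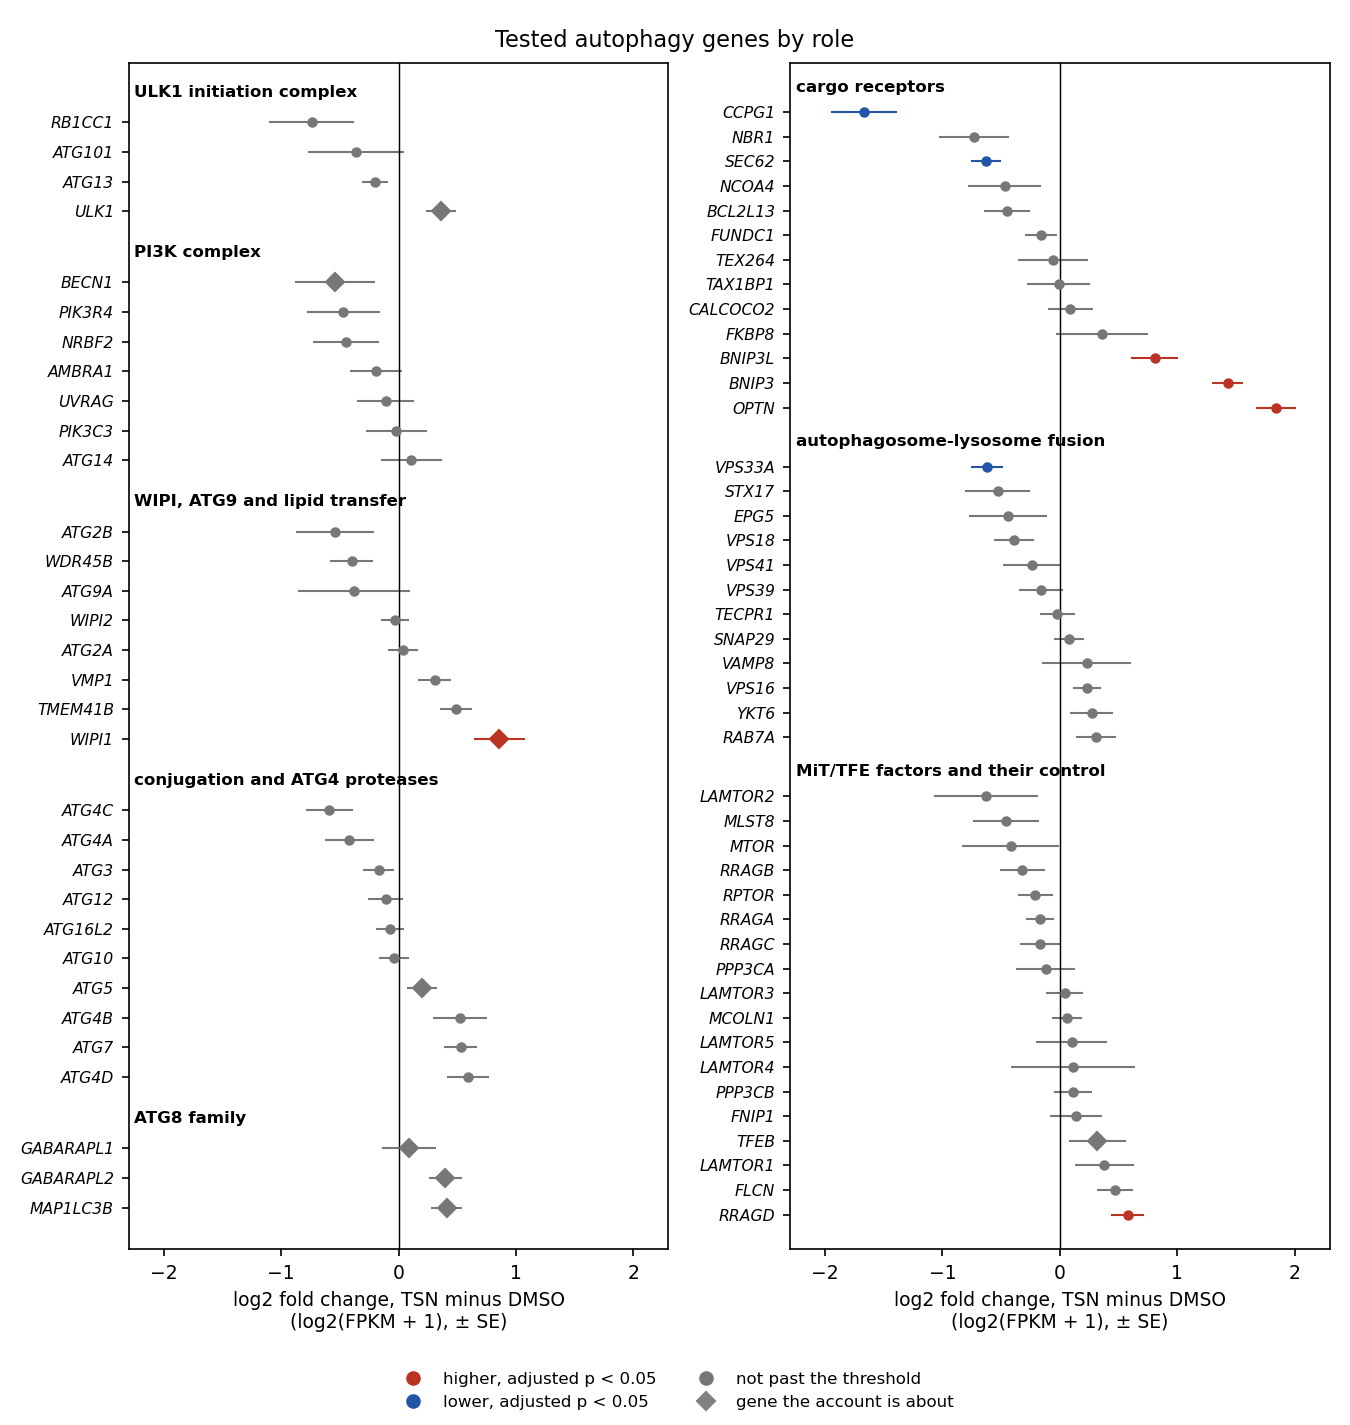
Log2 fold change (TSN minus DMSO, on log2(FPKM + 1), ± SE) of the tested genes of 8 autophagy lists by role, with diamonds for the genes named at the start and colour for limma adjusted p under 0.05. WIPI1 (0.86) is the only coloured diamond, and the cargo receptors hold both the highest value, OPTN (1.84), and the lowest, CCPG1 (-1.67).

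ATG5, whose product with ATG12 and ATG16L1 forms the ligase-like complex for ATG8 proteins (ENSG00000057663, chromosome 6, 106045423 to 106325791), read 23.4, 24.7 and 23.7 FPKM in DMSO and 30.7, 26.3 and 26.1 FPKM in TSN. The groups did not overlap, but TSN 2 and TSN 3 lay close to DMSO 2. Its log2 fold change of 0.20 ± 0.13 SE did not pass (95% interval -0.10 to 0.50, limma adjusted p = 0.329), in the full set or in any of 15 alternatives. Among 10 tested genes for conjugation and the ATG4 proteases, 0 rose and 0 fell, beside 14.9% called over all genes. ATG4D, one of the proteases that trim ATG8 proteins, had values of 49.7, 50.1 and 38.8 FPKM in DMSO and of 68.6, 58.9 and 83.7 FPKM in TSN. The groups did not overlap and gave no call (0.59 ± 0.18 SE, limma adjusted p = 0.0784), and a call was made without TSN 2 (0.71, limma adjusted p = 0.0449) and after quantile normalization (0.57, 0.0347). ATG4B, the protease that acts most broadly on ATG8 proteins, ranged from 34.2 to 45.0 FPKM in DMSO and from 46.1 to 80.6 in TSN (limma adjusted p = 0.188).

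MAP1LC3B, the gene of LC3B (ENSG00000140941, chromosome 16, 87383995 to 87404779), read 27.7, 30.1 and 27.9 FPKM in DMSO and 42.4, 39.0 and 34.2 FPKM in TSN. Every TSN library was higher than every DMSO library. The mean went from 28.57 ± 1.32 to 38.54 ± 4.09 FPKM (SD, n = 3), and the log2 fold change of 0.41 ± 0.13 SE (95% interval 0.10 to 0.73) missed the threshold (limma adjusted p = 0.0846). It passed without TSN 3 (0.50, 0.0188), after median log ratio scaling (0.52, 0.032) and after quantile normalization (0.50, 0.0343). Of the 75-base stretches of its annotated transcripts, 4.47% also stand in another gene, mostly MAP1LC3B2, whose own level was 0.197 to 0.922 FPKM.

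GABARAPL2 (ENSG00000034713, chromosome 16, 75566351 to 75577881), an ATG8 protein also named GATE-16, read 25.3, 25.9 and 21.7 FPKM in DMSO and 35.4, 29.9 and 31.6 FPKM in TSN. Again the groups did not overlap. The log2 fold change of 0.40 ± 0.14 SE (95% interval 0.07 to 0.73, limma adjusted p = 0.106) passed in 1 of 15 alternatives, quantile normalization (0.49, limma adjusted p = 0.0427). GABARAPL1 (ENSG00000139112, chromosome 12, 10212458 to 10223130), a close relative, read 6.20, 5.99 and 5.59 FPKM in DMSO and 7.39, 8.003 and 4.28 FPKM in TSN. TSN 1 and TSN 2 lay above all DMSO values and TSN 3 below them, so the groups overlapped. Its change of 0.09 ± 0.23 SE (95% interval -0.46 to 0.64, limma adjusted p = 0.819) was 0.33 without TSN 3 and -0.06 without TSN 2.

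The summed FPKM of the 6 ATG8-family genes with a row was 60.3, 62.9 and 55.9 in DMSO and 86.6, 77.9 and 71.3 in TSN. MAP1LC3B made up 45.9% to 49.9% of that sum in DMSO and 48% to 50.1% in TSN, and GABARAPL2 38.8% to 42% and 38.3% to 44.4%, so these shares overlapped while the sum did not. GABARAPL1 gave 9.53% to 10.3% in DMSO and 6.01% to 10.3% in TSN. GABARAP itself, expressed in most cells, stood at 0.240 to 0.551 FPKM and was not tested. Its annotated exons share 55.7% of their bases with other genes, and a level this low may be an underestimate, so the shares hold for the table and need not hold for the cells.

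SQSTM1, the cargo receptor p62 (ENSG00000161011, chromosome 5, 179806398 to 179838078), read 0.396, 0.727 and 0.446 FPKM in DMSO and 1.32, 0.867 and 1.31 FPKM in TSN. All TSN values lay above all DMSO values, with TSN 2 nearest to DMSO. The means were 0.5229 ± 0.179 and 1.167 ± 0.26 FPKM (SD, n = 3), a ratio of 2.23. SQSTM1 did not reach the filter, and in the fit with no filter its log2 fold change was 0.51 with a limma adjusted p of 0.157. Among the 30741 genes of that fit, 11.4% had all TSN values above all DMSO values. About 121 to 509 fragments per library lay behind these values if the annotated exon length holds.

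A level under 1.4 FPKM is unusual for a gene that most cells express strongly. Exons of SQSTM1 share 22% of their bases with MGAT4B and MRNIP on the opposite strand, and the part of this in the low values was not tested. Several other genes in wide use were as low, such as the cargo adaptor TOLLIP (0.184 to 0.325 FPKM) and WDR45, listed at 0 in 4 of 6 libraries, so the table may understate such genes and the rank of SQSTM1 below is that of the table. By the same rule of likeness, the nearest patterns to SQSTM1 over the 6 libraries were those of LAPTM4B (0.0602), HEBP1 (0.0876) and ATP1B3 (0.09).

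Ordered by mean FPKM, a scale per length, the genes ran in DMSO from MAP1LC3B (28.57) through GABARAPL2 (24.31), ATG5 (23.92), BECN1 (14.51), ULK1 (13.66), GABARAPL1 (5.926), WIPI1 (5.008) and TFEB (3.889) to SQSTM1 (0.5229). The ranges of GABARAPL2 and ATG5, of BECN1 and ULK1, and of GABARAPL1 and WIPI1 overlapped, so their order is not set by these libraries. In TSN, ULK1 (17.78) stood above BECN1 (10.4) without overlap, and the ranges of BECN1, WIPI1 and GABARAPL1 overlapped from one to the next.

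**Figure D3:**
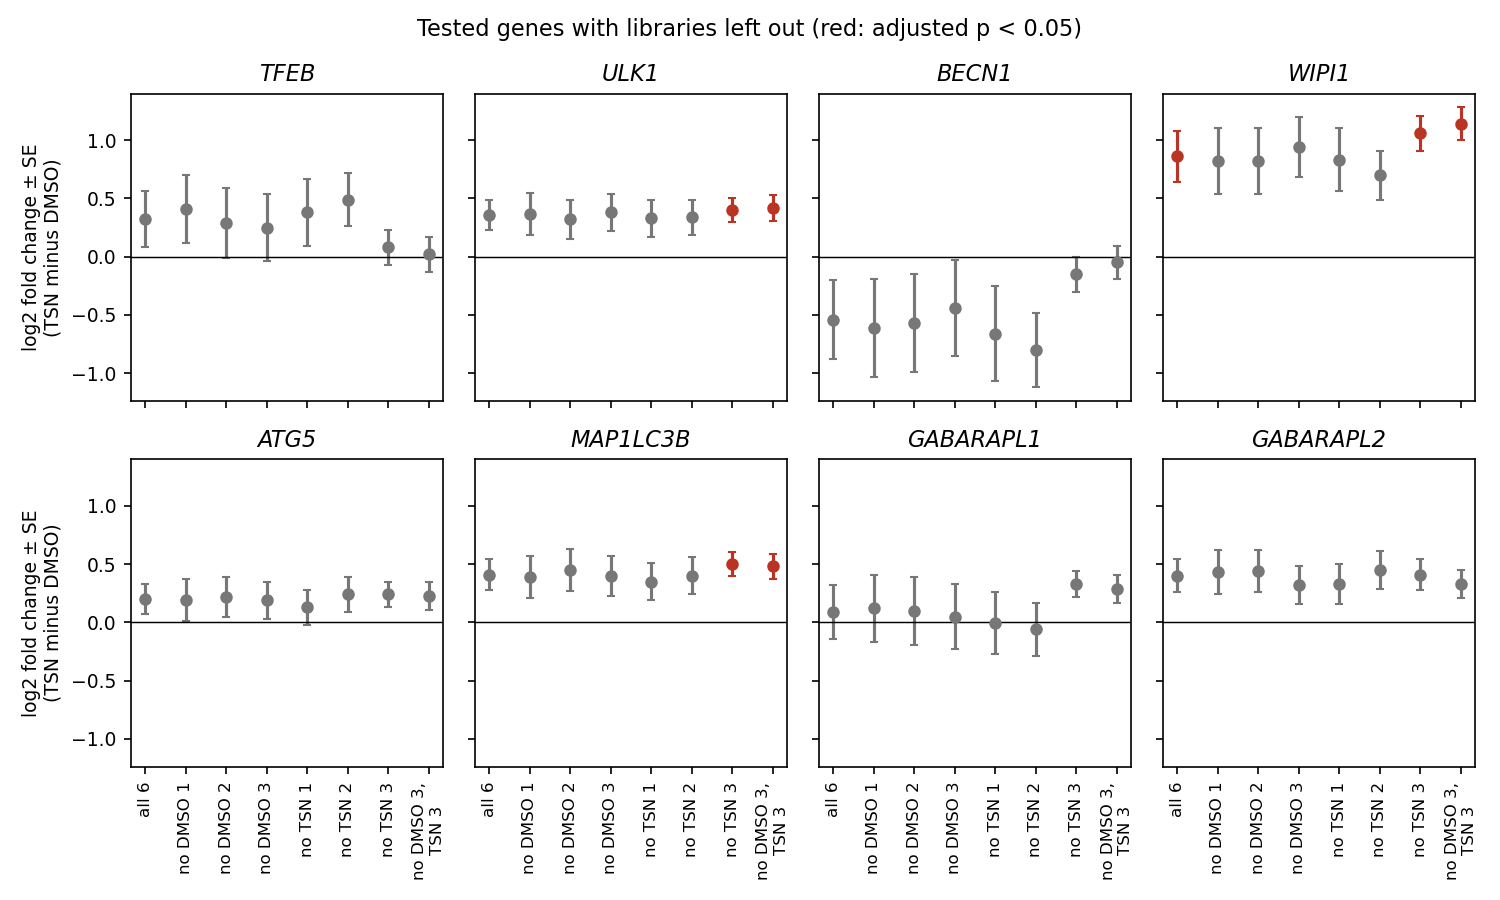
Log2 fold change ± SE (TSN minus DMSO, on log2(FPKM + 1)) of the 8 tested genes with all 6 libraries, with each library left out, and without DMSO 3 and TSN 3, in red where the limma adjusted p is under 0.05. WIPI1, ULK1 and MAP1LC3B are red without TSN 3, and BECN1 moves from -0.54 to -0.15 and TFEB from 0.32 to 0.08.

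The number of calls changed when TSN 3 was left out. Without it 3 of the 8 tested genes were called, WIPI1, ULK1 and MAP1LC3B, all higher, beside 24.7% of all genes tested in that fit and 12.9% called higher. The same 3 were called, again all higher, without both DMSO 3 and TSN 3, where 28.8% of all genes were called and 15% called higher. With any 1 of the other 5 libraries left out, 0 of the 8 were called by limma, and the share called over all genes was 2.85%, 2.26% and 3.93% when DMSO 1, DMSO 2 or DMSO 3 was left out, and 3.23% and 18.6% when TSN 1 or TSN 2 was. Scaling gave 3 of 8 (WIPI1, ULK1 and MAP1LC3B) by median log ratio beside 17.4% of all genes, and 4 of 8 (also GABARAPL2) by quantiles beside 19.7%. With no filter 0 were called beside 2.53% of all genes, and with a mean of at least 5 FPKM 0 beside 13.5%. WIPI1 alone was called with pseudocounts of 0.1 and 0.01 (14.6% and 14.4% of all genes) and with plain moderation (16%). In the full set 4 of the 8 (ULK1, WIPI1, MAP1LC3B and GABARAPL2) had an unadjusted p under 0.05.

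Over the 8 lists of autophagy machinery and its MiT/TFE control, 75 of 93 genes were tested, and 5 rose and 3 fell (10.7% called, beside 14.9% of all genes). Their median log2 fold change was -0.04, beside -0.10 over all genes. The lists were drawn up with earlier results of these data known. With 1 library left out, 2 to 11 rose and 0 to 5 fell.

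Cargo receptors link mitochondria, endoplasmic reticulum or protein aggregates to ATG8 proteins. Of 13 tested, 3 rose and 2 fell, or 38.5% called beside 14.9% of all genes, and with 1 library left out 2 to 3 rose and 0 to 2 fell. OPTN, optineurin, a receptor for damaged mitochondria and bacteria, had values of 0.774, 0.900 and 1.38 FPKM in DMSO and of 6.93, 5.53 and 6.09 FPKM in TSN. The ratio of means was 6.08, and the log2 fold change of 1.84 ± 0.17 SE passed (limma adjusted p = 0.00259). In DMSO only DMSO 3 reached 1 FPKM, so OPTN met the filter on low values through its TSN values. It would not have been tested at its DMSO level, and its call in the count of 3 carries that limit. BNIP3, a mitophagy receptor of the outer mitochondrial membrane, had values of 47.6, 41.6 and 38.6 FPKM in DMSO and of 121.5, 109.6 and 117.6 FPKM in TSN (1.43 ± 0.13 SE, limma adjusted p = 0.0027). Both kept their call with each library left out in turn.

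BNIP3L, the relative of BNIP3 also named NIX, rose from 18.41 ± 1.19 to 33.63 ± 7.94 FPKM (SD, n = 3) with a limma adjusted p of 0.0434. It is named because it completes the count of 3, and its call was kept without TSN 3 but lost without DMSO 1, DMSO 2, DMSO 3, TSN 1 or TSN 2 (limma adjusted p from 0.0648 to 0.167). CCPG1, a receptor for the endoplasmic reticulum, had values of 14.1, 12.1 and 18.9 FPKM in DMSO and of 4.45, 5.51 and 2.46 FPKM in TSN. It fell by 1.67 on the log2 scale (limma adjusted p = 0.0147), and 39.8% of its exon bases are shared, mostly with the readthrough gene DNAAF4-CCPG1. SEC62, a translocon subunit that also serves as a receptor for the endoplasmic reticulum, fell from 24.75 ± 0.844 to 15.62 ± 1.27 FPKM (SD, n = 3, limma adjusted p = 0.0222). Without DMSO 1, DMSO 2, DMSO 3 or TSN 1 the calls of CCPG1 (limma adjusted p from 0.058 to 0.0719) and of SEC62 (from 0.101 to 0.12) were lost.

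Among 12 tested genes for fusion of the vesicle with the lysosome, 1 fell and 0 rose, or 8.33% called beside 14.9% of all genes. VPS33A, a subunit of the HOPS tethering complex, read 10.3, 11.1 and 10.5 FPKM in DMSO and 7.10, 6.41 and 6.08 FPKM in TSN. The groups were well apart (-0.62 ± 0.14 SE, limma adjusted p = 0.0287), and the call was lost without DMSO 1, DMSO 2, DMSO 3 or TSN 1 (limma adjusted p from 0.101 to 0.153) and after quantile normalization (0.058).

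Of 18 tested genes of the MiT/TFE factors and their control at the lysosome, 1 rose and 0 fell, or 5.56% called beside 14.9% of all genes. This was RRAGD, a GTPase that with RRAGA or RRAGB brings mTORC1 and TFEB to the lysosome and is itself a known MiT/TFE target. Its values were 6.53, 6.53 and 6.52 FPKM in DMSO and 10.5, 11.4 and 9.05 FPKM in TSN. The groups were well apart, with a log2 fold change of 0.58 ± 0.14 SE (limma adjusted p = 0.0414). The call was lost with any library but TSN 3 left out (limma adjusted p from 0.0719 to 0.174). Its partner RRAGC, also a MiT/TFE target, read 10.7, 9.22 and 9.34 FPKM in DMSO and 9.96, 7.10 and 8.76 in TSN, with overlap (limma adjusted p = 0.529), and was named after its values were seen. Of the 18, 2 had all TSN values above all DMSO values, beside 16.2% of genes tested, and 2 had all below, beside 22.9%. Those above were RRAGD and FLCN. FLCN, also named after its values were seen, read 8.95, 9.12 and 9.45 FPKM in DMSO and 13.4, 14.7 and 11.3 in TSN (limma adjusted p = 0.0838).

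Among 18 tested lysosomal genes of the CLEAR network, known targets of TFEB, 3 rose and 0 fell, or 16.7% called beside 14.9% of all genes, with a median of 0.18. ATP6V1H, a subunit of the proton pump, read 18.6, 18.9 and 16.8 FPKM in DMSO and 35.0, 30.3 and 38.1 FPKM in TSN (0.89 ± 0.14 SE, limma adjusted p = 0.0107). GLA, alpha-galactosidase, read 15.2, 15.8 and 14.6 FPKM in DMSO and 22.4, 23.1 and 21.2 FPKM in TSN (limma adjusted p = 0.0331). The other call, named to complete the count, was CTSF (0.84, limma adjusted p = 0.0379), and 0 of the 3 were called without DMSO 1, DMSO 2, DMSO 3 or TSN 1. The call of CTSF was also lost after median log ratio scaling (limma adjusted p = 0.0569) and quantile normalization (0.0797). In DMSO only DMSO 1 reached 1 FPKM for CTSF, so it met the filter on low values through its TSN values. CTSF would not have been tested at its DMSO level, and its call in the count of 3 carries that limit. Without TSN 2 the call of GLA was lost as well (limma adjusted p = 0.059).

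Upstream of ULK1, 12 tested genes of AMPK and TSC signalling held 1 that rose and 1 that fell, or 16.7% called beside 14.9% of all genes. DDIT4 (REDD1), an inhibitor of mTORC1 by way of TSC, read 106.5, 106.9 and 87.0 FPKM in DMSO and 181.5, 155.1 and 175.0 FPKM in TSN (0.76 ± 0.15 SE, limma adjusted p = 0.0208), with 41.2% of its exon bases shared with the antisense gene DDIT4-AS1. CAMKK2, a kinase that activates AMPK, read 26.1, 27.6 and 27.7 FPKM in DMSO and 17.6, 20.2 and 16.2 FPKM in TSN (-0.57 ± 0.13 SE, limma adjusted p = 0.0356). Neither overlapped between groups, and both calls were lost without DMSO 1, DMSO 2, DMSO 3 or TSN 1 (limma adjusted p from 0.089 to 0.165).

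**Figure D4:**
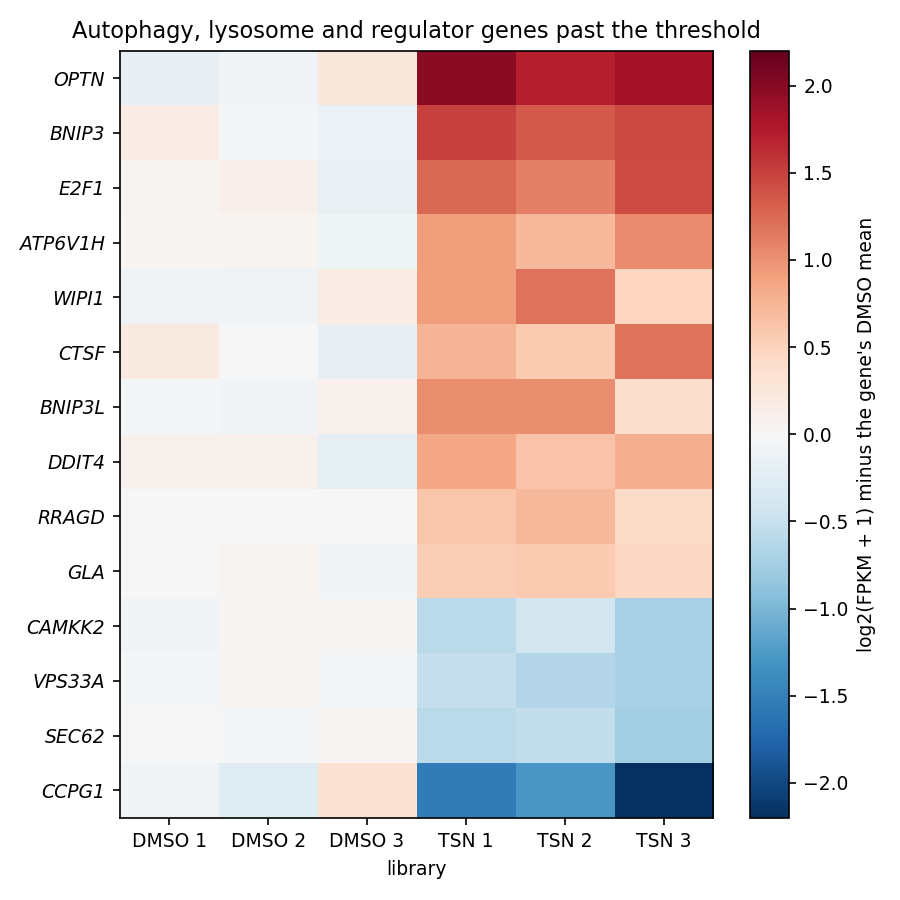
Level of 14 autophagy, lysosome and regulator genes past the threshold in each library, as log2(FPKM + 1) minus the DMSO mean of the gene (colour, from -2.19 to 1.99). The genes were chosen as past the threshold. TSN 3 shows the smallest rise of WIPI1, BNIP3L, RRAGD and GLA, and the largest rise of ATP6V1H, CTSF and E2F1. It also shows the deepest fall of CCPG1, SEC62, VPS33A and CAMKK2.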

How the data were processed

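The authors deposited 1 table with values in FPKM for 30741 genes in 6 libraries. The unit is not named in the table: low values of single-exon genes, multiplied by exon length, were whole multiples (within 0.1) of a step of the library in 96.1% to 96.8% of cases, from which depth was estimated. Per the submitters' processing notes, reads were set against GRCh38, and DESeq2 1.26.0 is named without its role. For aligner, counting tool, annotation and strand, nothing was given in the sources used here.

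The test was that of limma 3.58.1 in R 4.3.3, with trended variance and robust moderation, applied to log2(FPKM + 1). It covered 11440 genes, those reaching 1 FPKM in 3 or more libraries. P-values were adjusted over all of them by the Benjamini-Hochberg method. Fold changes on this scale understate the change of low genes, and intervals are 95% intervals of the moderated fit. If libraries of a group shared a culture, p-values measure only the spread between libraries. The procedure was tested on simulated data with independent noise for each gene, so that test does not cover deviations that libraries share over genes.

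Places and exon overlaps came from GENCODE 29, which held 93.7% of the table's genes, and promoter windows from RefSeq (GRCh38.p14), in which all 10 genes were matched by symbol. Exact 75-base matches between transcripts were counted on both strands. Fragment numbers are FPKM times exon length over the step, and cover counting error only.

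The genes and lists were chosen with earlier results of these data known. All 10 genes were named. From each list up to 2 higher and 2 lower calls of lowest adjusted p were named, or, where none of a list passed, up to 2 genes of highest mean. For TFEB and SQSTM1 the 3 genes of nearest pattern (mean of 5 FPKM or more) were added. A lysosomal gene is not reported here and was taken out of its list after the tests were run. Exceptions are marked where they occur, and marker genes of other cell types are named as examples. Alternatives were 2 pseudocounts (0.1 or 0.01), dropping the filter, requiring a mean of 5 FPKM, 2 scalings, plain moderation, a replicate block and libraries left out, with the filter always set on all 6 libraries. Python 3.11.15 was used with numpy 2.4.6, pandas 2.3.3 and matplotlib 3.10.9.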

Additional observations from a re-analysis of the deposited data

How the results depend on the processing

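The count of genes called, 1706, was 777 unfiltered, 1002 where a mean of 5 FPKM was required, 3299 without DMSO 3 and TSN 3, and 259 to 2823 with 1 library left out. Of the 10 autophagy genes, 8 of them tested in the main fit, 1 was called, against 0 unfiltered, 0 where a mean of 5 FPKM was required, 3 after median log ratio scaling, 4 after quantile normalization, 3 without DMSO 3 and TSN 3, and 0 to 3 with 1 library left out. Calls in the 8 autophagy lists went from 8 of 75 tested genes to 3 with no filter, 15 after quantile normalization, 19 without DMSO 3 and TSN 3, and 2 to 16 with 1 library left out. The share called over all genes moved too. It was 14.9% in the main fit, 2.53% with no filter and 13.5% where a mean of 5 FPKM was required. Scaling gave 17.4% by median log ratio and 19.7% by quantiles. It was 28.8% without DMSO 3 and TSN 3, and 2.26% to 24.7% with 1 library left out. Fits with a library left out have fewer residual degrees of freedom, and a test over more genes adjusts more, and the parts of these in the counts were not separated. GABARAPL1 changed sign among the fits with 1 library left out (-0.06 to 0.33), as did AMBRA1 (-0.34 to 0.04, and 0.10 without DMSO 3 and TSN 3), and the cause was not tested. Of the other log2 fold changes among the 32 genes put through these alternatives, 0 changed sign. WIPI2, RRAGC, FLCN, NBR1, FOXO3, ATF4 and NFE2L2 were not among them. The labels do not say that replicate numbers pair the samples, and deviations of same-numbered libraries correlated negatively (-0.32, -0.65 and -0.83 over genes). Libraries of other numbers shared deviations across the groups: DMSO 3 correlated with TSN 2 (0.87) and TSN 1 (0.33). DMSO 1 and DMSO 2 correlated with TSN 3 (0.74 and 0.61), and negatively DMSO 1 with TSN 2 (-0.76) and DMSO 2 with TSN 1 (-0.22). The source of these shared deviations was not tested. With the replicate block, 0 genes of all tested, 0 of the 10 and 0 of the lists were called by limma. Fold changes on a low level such as that of OPTN depended on the pseudocount (1.84 with 1, 2.63 with 0.01). The part of depth in these results was not tested, and SQSTM1 stayed under the filter.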

Other observations

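Among 10 tested transcription regulators linked to autophagy other than the MiT/TFE factors, 1 rose and 0 fell by limma, beside 14.9% called over all genes. E2F1, a cell cycle factor that can also act on autophagy genes, read 54.5, 56.4 and 46.6 FPKM in DMSO and 126.5, 114.3 and 143.4 FPKM in TSN. The groups were far apart (1.27 ± 0.15 SE, limma adjusted p = 0.00479), and the call held with each library left out. FOXO3, ATF4 and NFE2L2 (NRF2), named after their values were seen, gave no call. ATF4, the main factor of the integrated stress response, stood at 506.9 to 592.9 FPKM in DMSO and 389.2 to 518.7 in TSN, with overlap. NBR1, a cargo receptor akin to SQSTM1, was also named after its values were seen. It read 12.1, 12.5 and 16.7 FPKM in DMSO and 8.68, 11.2 and 4.78 FPKM in TSN, without a call (limma adjusted p = 0.156). All its TSN values lay below all its DMSO values, an order seen in 22.9% of genes tested. SQSTM1, under the filter in the main fit, had the opposite order in the same libraries.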
